A study of Mus musculus with 14 samples.

Results

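A group of 10 transporter genes around Slc38a2 was described in brain RNA of mice lacking 2310061I04Rik (Rik). The genes were chosen by name, with earlier results of the same genotype comparison known, so the values below that compare the genotypes are a description of them. All 10 were found among the 56748 genes of the table, and all 10 were among the 16882 genes that passed the filter on low counts. They are Slc38a1, Slc38a2, Slc38a4 and Slc38a3 of the SLC38 family, Slc1a4 and Slc1a5, the heavy chain gene Slc3a2 and the genes Slc7a5, Slc7a11 and Slc7a3.

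The libraries came from brains of 7 Rik null mice and of 7 wild-type (WT) mice at postnatal day 23 (P23), all on the C57BL6/J strain, 1 animal per library. The labels gave 4 females and 3 males among the Rik null animals, and 3 females and 4 males among WT. Rik null animals are homozygous for a spontaneous deletion in an intron of Rik, which arose in a single embryonic stem cell clone made for a floxed Traf7 allele and was then bred away from it. The study compared littermates, and the Rik null pups were runted and close to the age at which they die. The tissue was labelled whole brain, of which 1 side of a sagittal cut was processed, so in every value below fewer cells of a type and less RNA per cell cannot be told apart.

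System A carriers bring small neutral amino acids such as glutamine and alanine into cells together with sodium, and Slc38a2 is the member of that system known to be induced when amino acids are scarce and under hypertonic stress. System N carriers such as Slc38a3 move glutamine in either direction and are best known in brain from astrocytes, which hand glutamine to neurons. Other members work as pairs, in which a light chain such as Slc7a5 or Slc7a11 carries the amino acid and the heavy chain Slc3a2 brings it to the cell surface. The group is not purely neutral, because Slc7a3 carries cationic amino acids, Slc7a11 exchanges glutamate for cystine and Slc38a4 takes cationic substrates as well.

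Total counts were 14.7 to 17.9 M per Rik null library and 14.7 to 17.0 M per WT library. Rik itself had 1.03 to 3.37 counts per M counts (CPM) in the Rik null libraries, against 30.3 to 40.9 CPM in WT, so the genotype labels held in all 14. The sex label did not hold in 1 library, since Rik null replicate 4, labelled male, had 7491 Xist counts and 0 counts of 4 Y-linked genes. Along the first principal component, which separated the genotypes, Rik null replicate 1 lay at -54.5, whereas the other Rik null libraries lay between -23.8 and -22.0, and WT replicate 4 was far from the others on the third component. Between genotypes 5810 genes (34.4%) passed an adjusted p of 0.05, 2783 of them higher (16.5%) and 3027 lower (17.9%) in Rik null brain, which is the background for every count of calls given here.

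In brief, 1 of the 10 genes was higher past that threshold (Slc38a2), 2 were lower (Slc38a3 and Slc1a4) and 7 did not pass. The median log2 fold change of the 10 genes was 0.01, and that of all tested genes was -0.00. Only Slc38a2 also passed a change of at least 2-fold, which 3.54% of all genes did. The libraries of the genotypes did not overlap for 2 of the 10 genes, as for 12.4% of all genes, namely for Slc38a2, where Rik null lay above WT (5.38% of all genes), and for Slc38a3, where Rik null lay below WT (7.03% of all genes). The rule used this contrast, so nothing is read from these counts. Without Rik null replicate 1 and WT replicate 4 the count of members past the threshold was 4 in place of 3, the added gene being Slc1a5.

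**Figure D1:**
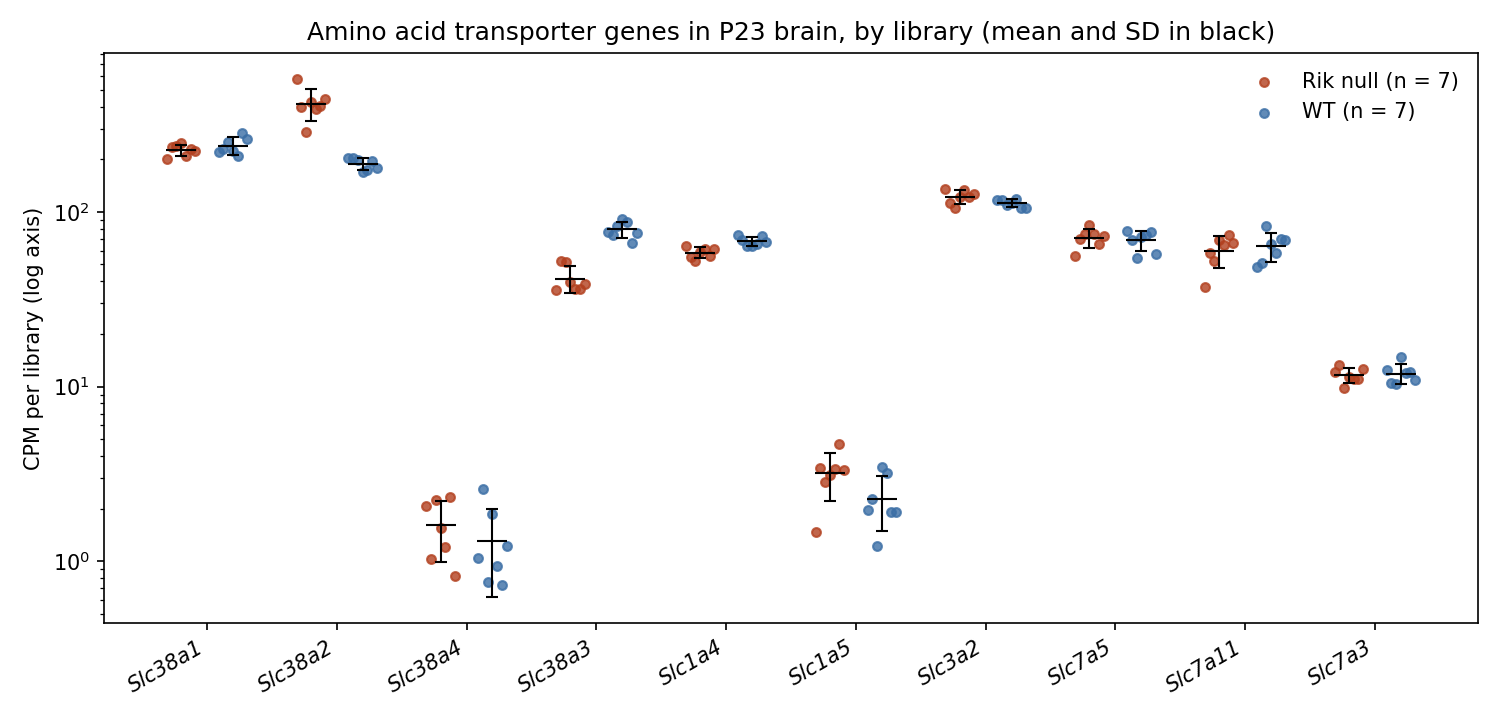
CPM of the 10 transporter genes in each library on a log axis, with Rik null libraries in red and WT libraries in blue and the mean and SD in black (n = 7 each). All 7 Rik null points lie above WT for Slc38a2 and below WT for Slc38a3, and the points of the other 8 genes overlap.

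Slc38a2 encodes the system A carrier SNAT2 and lies on chromosome 15, on the minus strand at chr15:96687392-96699730 (GRCm38). It had 288 CPM in the lowest, 403 CPM in the median and 578 CPM in the highest Rik null library, against 169, 195 and 205 CPM in WT. The lowest Rik null library, replicate 3, was above the highest WT library, and replicate 1 was the highest of all. The mean was 418 ± 86.4 CPM in Rik null and 189 ± 14.4 CPM in WT (SD, n = 7 each). The log2 fold change was 1.14 (SE 0.10), or 2.21-fold. Its log2 fold change was at the 98.6th percentile of all tested genes. The spread was also wider among the Rik null animals, with a coefficient of variation of 20.7%, against 7.61% in WT. That spread includes Rik null replicate 1, at 578 CPM, with 444 CPM in the next library, and no coefficient is given without it. Without Rik null replicate 1 the log2 fold change was 1.05 (SE 0.08).

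Slc38a1 encodes SNAT1, the system A carrier best known from neurons, and is the neighbouring protein-coding gene. It had 201.1 to 249 CPM in Rik null (median 228) and 209 to 284 CPM in WT (median 230). Rik null replicate 1, which was highest for Slc38a2, was lowest for Slc38a1. The log2 fold change of Slc38a1 was -0.08 (SE 0.07), and the genotypes overlapped. Slc38a4 encodes SNAT4, a carrier best known from liver and placenta, and it was close to the limit of the filter. It had 0.823 to 2.32 CPM in Rik null and 0.728 to 2.60 CPM in WT, with a log2 fold change of 0.30 (SE 0.32), a difference within the spread between libraries. These 3 genes follow each other over 485 kb at chr15:96571418-97055956, all on the minus strand. The gaps between them were 44.5 kb and 295 kb, and no other gene in them passed the filter. Only the middle gene of the 3 differed between genotypes by more than the spread between libraries.

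The 250 bases before the RefSeq start of Slc38a2 are shown beside those of Slc7a11, because these were the only 2 of the 5 members with a promoter sequence in the table (RefSeq, GRCm38.p6) that held a searched motif, and because Slc38a2 was higher in Rik null while Slc7a11 did not separate the genotypes. Both strands were searched for TGATGNAA, the core of the element that ATF4 and C/EBP proteins share, for TGACTCA, the AP-1 site, and for TGACNNNGC, the core of the antioxidant response element. Capitals mark the matches. The windows are chr15:96699729-96699978 and chr3:50443614-50443863, both read on the minus strand.
Slc38a2 promoter: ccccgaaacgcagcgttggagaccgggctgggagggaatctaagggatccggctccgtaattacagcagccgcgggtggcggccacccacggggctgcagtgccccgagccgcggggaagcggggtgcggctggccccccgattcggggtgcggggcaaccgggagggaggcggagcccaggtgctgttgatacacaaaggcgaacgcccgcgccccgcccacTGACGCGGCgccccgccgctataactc
Slc7a11 promoter: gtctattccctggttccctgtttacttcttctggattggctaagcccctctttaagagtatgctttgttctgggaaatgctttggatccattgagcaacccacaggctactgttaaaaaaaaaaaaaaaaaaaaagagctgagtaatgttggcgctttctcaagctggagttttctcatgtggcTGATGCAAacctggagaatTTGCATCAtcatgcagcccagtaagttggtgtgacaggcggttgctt
Slc38a2 held TGACNNNGC from 27 to 19 bases before the start, a motif found in 10.2% of 32851 promoters of that length. Slc7a11 held TGATGNAA from 66 to 59 bases before the start and, on the other strand, from 47 to 40 bases, and 3.45% of promoters held that motif at least once. TGACTCA, found in 4.46% of promoters, was in none of the windows of the 5 genes, and the windows of Slc1a4, Slc38a4 and Slc3a2 held no match. The amino acid response element known from human SLC38A2 lies in the first intron, outside such a window. A match is a run of letters and was not tested as a site. The windows also differed in composition, with 72.0% G and C for Slc38a2 and 43.2% for Slc7a11.

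Slc38a3 encodes the system N carrier SNAT3 and lies at chr9:107650634-107669530 on the minus strand. It had 35.9 CPM in the lowest, 38.6 CPM in the median and 52.0 CPM in the highest Rik null library, against 66.2, 76.9 and 91.2 CPM in WT. Every Rik null library was below every WT library, with replicates 2 and 3 the highest of the Rik null libraries. The mean was 41.5 ± 7.29 CPM in Rik null and 79.4 ± 8.70 CPM in WT (SD, n = 7 each), a log2 fold change of -0.93 (SE 0.10), or 1.91-fold lower. Astrocytes are known as the main site of this carrier in brain. Of 10 astrocyte markers 7 were lower and none was higher past the threshold, and their summed level was 5449 to 6284 CPM in Rik null and 6732 to 8246 CPM in WT. The part of astrocyte number or content in the value of Slc38a3 was not tested.

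Slc1a4 (chr11:20302180-20332713, minus strand) encodes ASCT1, a sodium-dependent exchanger of serine, alanine and other small neutral amino acids. Its level was 52.5, 58.7 and 64.1 CPM in the lowest, median and highest Rik null library, against 63.4, 67.6 and 73.5 CPM in WT. In 6 of the 7 Rik null libraries the level was below that of all WT libraries, and replicate 1 was inside the WT range. The log2 fold change was -0.21 (SE 0.06), a much smaller difference than that of Slc38a3. Slc1a4 did not pass with scaling by library size alone (-0.14) or within either labelled sex alone (-0.21 in females and -0.22 in males). Slc1a5 (chr7:16781340-16798274, plus strand) encodes ASCT2, the glutamine exchanger best known from proliferating cells. It was low, at 1.46 to 4.71 CPM in Rik null and 1.23 to 3.48 CPM in WT, and overlapped between genotypes with a log2 fold change of 0.48 (SE 0.24). Rik null replicate 1 was the lowest of its group, and without it the log2 fold change of Slc1a5 was 0.61 (SE 0.22), past the threshold. It was 0.09 (SE 0.37) in females alone and 0.86 (SE 0.27) in males alone, a group that includes Rik null replicate 4 by its label.

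Slc3a2 (chr19:8706882-8723369, minus strand) encodes the heavy chain 4F2hc, also known as CD98. It had 105 CPM in the lowest, 123 CPM in the median and 135 CPM in the highest Rik null library, against 105, 113 and 118 CPM in WT. In 5 of the 7 Rik null libraries the level was above that of all WT libraries, and the other two were inside the WT range. The log2 fold change was 0.12 (SE 0.06) and did not pass. It was past the threshold with scaling by library size alone (0.19) and without Rik null replicate 3, the library with the lowest Rik null level.

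The light chain genes did not separate the genotypes. Slc7a5 (chr8:121881150-121907694, minus strand) encodes LAT1, which carries large neutral amino acids and is known from the endothelium of the blood-brain barrier. It had 56.2 to 83.7 CPM in Rik null and 54.5 to 77.4 CPM in WT, and its log2 fold change was 0.05 (SE 0.09). Of 10 endothelial markers 2 were higher and none was lower past the threshold, and their summed level was 337 to 375 CPM in Rik null and 263 to 365 CPM in WT. Slc7a11 (chr3:49892526-50443614, minus strand) encodes xCT, the cystine carrier that feeds glutathione synthesis. It had 37.3 to 73.5 CPM in Rik null and 48.3 to 83.1 CPM in WT, and its log2 fold change was -0.08 (SE 0.13), with Rik null replicate 1 the lowest library. Slc7a3 (chrX:101079210-101086020, minus strand) encodes CAT3, a carrier of arginine and lysine that needs no heavy chain, and had 9.76 to 13.3 CPM in Rik null and 10.4 to 14.8 CPM in WT, and its log2 fold change was -0.03 (SE 0.10).

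**Figure D2:**
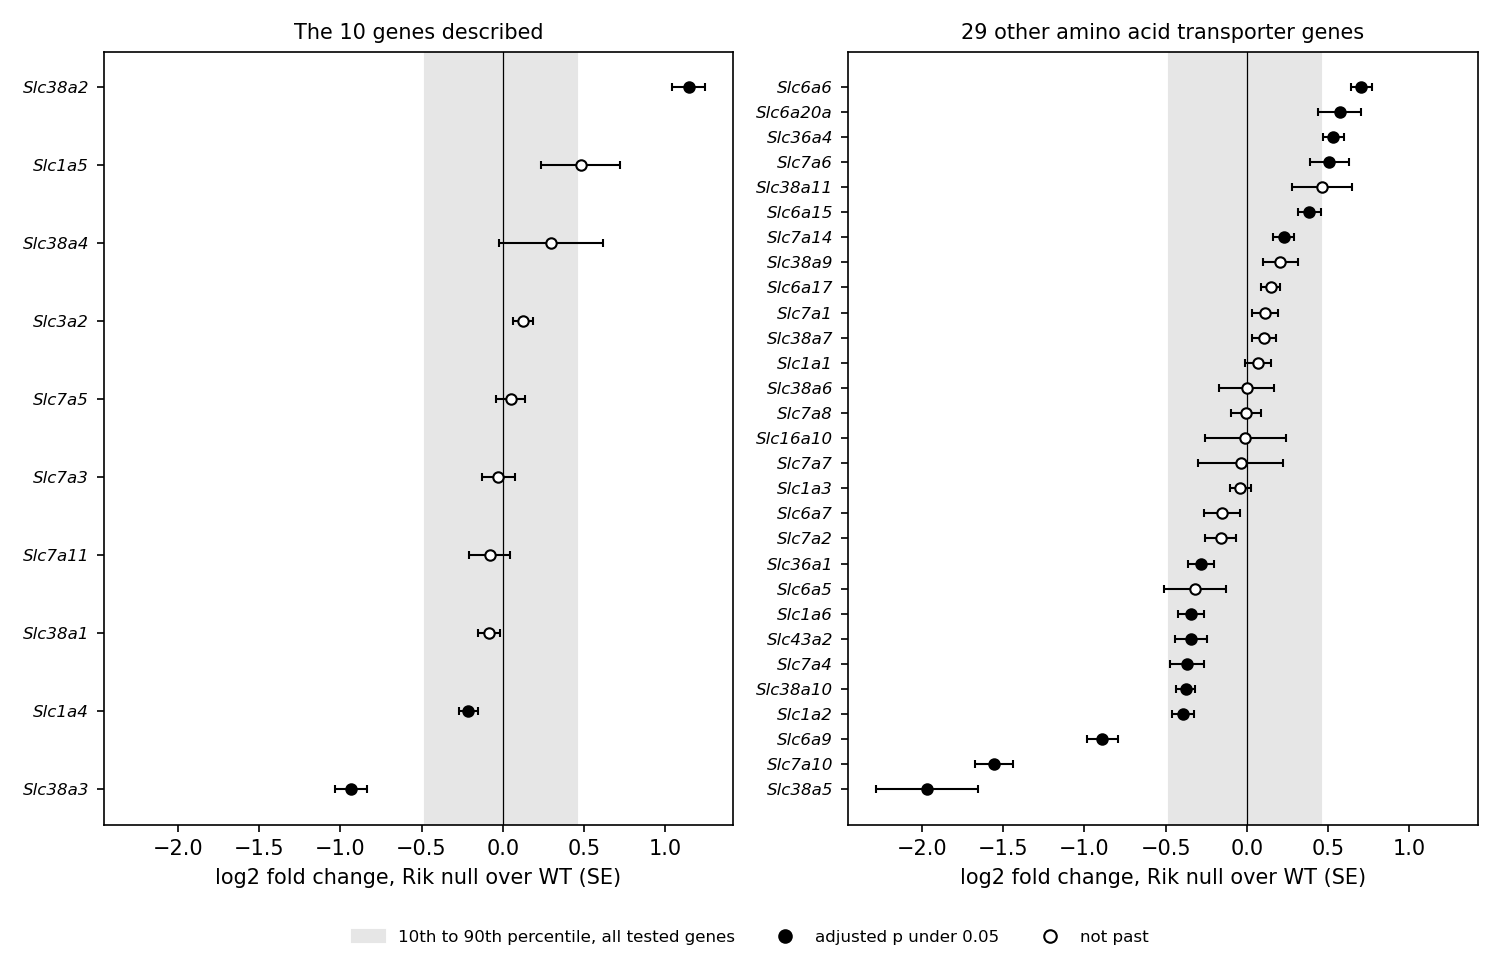
Log2 fold change of Rik null over WT with its SE for the 10 genes (left) and for 29 other amino acid transporter genes (right), with filled circles for an adjusted p under 0.05 and a grey band for the 10th to 90th percentile of all tested genes (-0.48 to 0.46). Slc38a2 and Slc38a3 lie clear of the band on opposite sides, and Slc7a10 and Slc38a5 are the lowest of the other transporters.

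Other markers moved with genotype in the same brains. All 6 markers of myelinating oligodendrocytes were lower, with a summed level of 6558 to 8810 CPM in Rik null and 10179 to 12423 CPM in WT, and 5 of 6 microglial markers were lower, at 171 to 228 CPM in Rik null and 251 to 345 CPM in WT. Of 10 neuronal markers 3 were lower and 1 was higher, at 6191 to 6849 CPM in Rik null and 6699 to 7208 CPM in WT. The choroid plexus and meningeal lists each had 3 of 6 genes lower and none higher, and their sums overlapped between genotypes, at 583 to 760.2 CPM in Rik null and 543 to 855 CPM in WT for choroid plexus and 71.8 to 98.3 CPM in Rik null and 78.3 to 133 CPM in WT for meninges. The share of the transporters' values that goes with these cell types was not tested.

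Levels of different genes were compared per length, on the FPKM scale of the table. In Rik null brain the order was led by Slc38a2 at 46.8 ± 9.65 FPKM and Slc3a2 at 34.4 ± 3.00 FPKM, whose libraries overlapped. Slc7a5 (19.0 ± 2.29 FPKM), Slc1a4 (14.8 ± 1.02 FPKM) and Slc38a1 (13.0 ± 0.981 FPKM) came next, each overlapping its neighbour, and Slc38a3 followed on its own at 7.80 ± 1.37 FPKM. Slc7a11 (4.28 ± 0.881 FPKM) and Slc7a3 (3.05 ± 0.307 FPKM) overlapped each other, and Slc1a5 (0.757 ± 0.230 FPKM) and Slc38a4 (0.374 ± 0.144 FPKM) were the lowest. In WT brain Slc3a2 was the highest on its own at 31.4 ± 1.59 FPKM. Slc38a2 (21.1 ± 1.56 FPKM), Slc7a5 (18.3 ± 2.44 FPKM), Slc1a4 (17.1 ± 0.989 FPKM), Slc38a3 (14.9 ± 1.66 FPKM) and Slc38a1 (13.7 ± 1.54 FPKM) formed a run in which each overlapped the next. Slc7a11 (4.51 ± 0.853 FPKM), Slc7a3 (3.10 ± 0.408 FPKM), Slc1a5 (0.540 ± 0.189 FPKM) and Slc38a4 (0.304 ± 0.159 FPKM) kept the places they had in Rik null (SD, n = 7 for each value). The order thus differed between genotypes in 2 places, with Slc38a2 before Slc3a2 in Rik null and after it in WT, and Slc38a3 after Slc38a1 in Rik null and before it in WT.

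Sex was not used to choose the genes and was tested. In a fit of genotype, sex and their interaction with edgeR, 0 genes (0%) passed for the interaction and 0 (0%) for sex. At an unadjusted p under 0.05 there were 984 and 829 genes, and DESeq2 also called 0 for the interaction. These fits counted Rik null replicate 4 as male by its label, although it had Xist counts and no Y-linked counts. Not even Xist passed for sex, so the 0 for sex cannot show that no gene differs by sex. The values for males include that library unless it is said to be left out, and it was not refitted as female. The log2 fold change of Slc38a2 was 1.23 (SE 0.15) in females and 1.05 (SE 0.14) in males, a difference of 0.18 (SE 0.21, edgeR adjusted p = 0.913). For Slc38a3 it was -1.07 (SE 0.13) in females and -0.81 (SE 0.14) in males, a difference of -0.26 (SE 0.19, edgeR adjusted p = 0.881). Among the members Slc7a5 had the smallest adjusted p for the interaction in edgeR (adjusted p = 0.832), with log2 fold changes of -0.14 (SE 0.12) in females and 0.23 (SE 0.12) in males. Without Rik null replicate 4, whose transcripts go against its label, 0 genes passed for the interaction and 7 for sex, none of them a member. Leaving out 1 other library gave 0 to 10 genes for sex, the 10 being without WT replicate 2. Without Rik null replicate 4 the log2 fold change in males was 1.01 (SE 0.16) for Slc38a2 and -0.77 (SE 0.16) for Slc38a3. The differences between females and males were then 0.22 (SE 0.23) and -0.30 (SE 0.21). That of Slc7a5 was -0.30 (SE 0.18), against -0.37 (SE 0.17) with replicate 4.

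Levels of partner genes, as log2 CPM, were then compared within each genotype, a variation that the choice of genes did not use. Over the 7 Rik null libraries, Slc7a5 and Slc3a2 had a Pearson r of -0.38 (exact permutation p = 0.395, adjusted p = 0.593 over 6 relations) and a Spearman rho of -0.50 (exact p = 0.267, adjusted p = 0.746). Slc7a11 and Slc3a2 had an r of -0.12 there (exact p = 0.804, adjusted p = 0.804) and a rho of -0.07 (exact p = 0.906, adjusted p = 0.906). Slc38a1 and Slc38a2 had an r of -0.55 (exact p = 0.202, adjusted p = 0.593) and a rho of -0.39 (exact p = 0.396, adjusted p = 0.746). In WT libraries the r of Slc7a5 with Slc3a2 was 0.44 (exact p = 0.326, adjusted p = 0.593) with a rho of 0.32 (exact p = 0.498, adjusted p = 0.746), and that of Slc38a1 with Slc38a2 was 0.25 (exact p = 0.582, adjusted p = 0.699) with a rho of 0.14 (exact p = 0.783, adjusted p = 0.906). The largest r in size was that of Slc7a11 with Slc3a2 in WT, at -0.74 (exact p = 0.0629, adjusted p = 0.377) with a rho of -0.79 (exact p = 0.0480, adjusted p = 0.288). No relation passed after adjustment. With the 2 libraries farthest from the median of the x measure left out, r in Rik null was 0.18 for Slc7a5 with Slc3a2, 0.35 for Slc7a11 with Slc3a2 and -0.17 for Slc38a1 with Slc38a2, so the negative sign of the first pair and of the second rested on those libraries. In WT it was 0.87, -0.91 and 0.51.

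**Figure D3:**
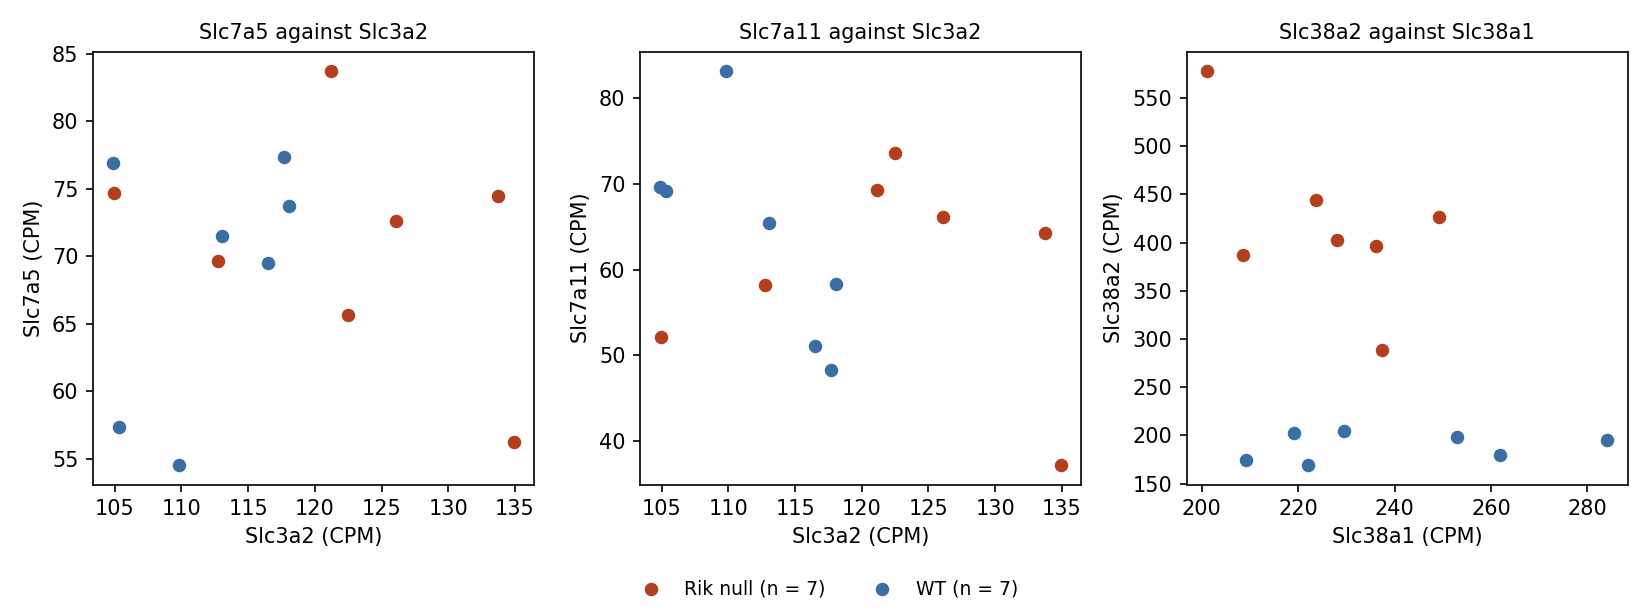
CPM of Slc7a5 and Slc7a11 against that of Slc3a2, and of Slc38a2 against Slc38a1, with Rik null libraries in red and WT libraries in blue (n = 7 each). In the left and middle panels the lowest red point, Rik null replicate 1, pairs the highest Slc3a2 level with the lowest Slc7a5 (56.2 CPM) and Slc7a11 (37.3 CPM) of its group, and in the right panel all red points lie above all blue ones.

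The genes whose profile was most like that of Slc38a2 over the 14 libraries were found by the root mean square difference between scaled log2 CPM profiles among 15621 genes. With each gene centred within genotype they were Npas1 (0.43), Rnf126 (0.44), Mcrip2 (0.45), Dhx38 (0.46) and Nucb1 (0.47), and the closest members were Slc1a4 at rank 234 (0.74) and Slc3a2 at rank 533 (0.83), with Slc38a3 farthest at rank 14908. Without that centring, where genes that differ by genotype in the same direction come first, they were Sat1 (0.22), Ppp1r2 (0.23), Usp12 (0.23), Arhgef10l (0.24) and Ip6k1 (0.25). Sat1, which encodes a spermidine acetyltransferase, had 121 ± 33.1 CPM in Rik null and 36.5 ± 4.57 CPM in WT (SD, n = 7 each), a log2 fold change of 1.73 (SE 0.15). Of the members Slc3a2 was then closest at rank 2026 and Slc38a3 was farthest at rank 15542. Neither ranking was repeated without Rik null replicate 1, the highest library for Slc38a2.

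The other genes of amino acid transport and of its known regulation were taken from 6 lists, with 120 distinct genes tested, of which 29 (24.2%) were higher and 27 (22.5%) lower in Rik null. The lists and the 10 genes were drawn up with earlier results known, so these counts describe the lists only. With scaling by library size alone 42 were higher and 22 lower, and over all genes 63.8% of the calls were then higher, against 47.9% in the comparison as given. Without Rik null replicate 1 and WT replicate 4, 28 of the listed genes were higher and 24 lower.

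Of 29 tested other amino acid transporters, 6 were higher and 9 lower, and the median of their log2 fold changes was -0.01, with -1.97 as the lowest and 0.70 as the highest. Slc7a10, an exchanger of glycine and D-serine, had 12.6 ± 2.81 CPM in Rik null and 37.2 ± 2.28 CPM in WT (log2 fold change -1.56, SE 0.12, edgeR adjusted p = 3.63e-09). Slc6a9, the glycine transporter GlyT1, had 29.3 ± 4.84 CPM in Rik null and 54.4 ± 4.69 CPM in WT (-0.89, SE 0.10, edgeR adjusted p = 5.14e-07). Slc38a5, a further system N carrier, was named after its values were seen and had 1.08 ± 0.575 CPM in Rik null and 4.24 ± 1.39 CPM in WT (-1.97, SE 0.31, edgeR adjusted p = 5.74e-05). Slc38a7, also described as a carrier of system N, had 28.8 ± 2.70 CPM in Rik null and 26.8 ± 0.777 CPM in WT and did not pass (0.11, SE 0.07, edgeR adjusted p = 0.267), and it too was named after its values were seen. Slc6a6, the taurine transporter, rose to 172 ± 16.8 CPM in Rik null, against 106 ± 7.38 CPM in WT (0.70, SE 0.06, edgeR adjusted p = 7.17e-08), and Slc36a4, a carrier of proline and tryptophan, to 125 ± 9.72 CPM, against 86.2 ± 7.96 CPM (0.53, SE 0.07, edgeR adjusted p = 2.92e-06).

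The 2 kinds of stress that Slc38a2 is known to answer were looked up next. Of 24 tested genes of the amino acid response, 5 were higher and 3 lower, and their log2 fold changes had a median of -0.03. The higher genes included Ddit4 (0.80, SE 0.17, edgeR adjusted p = 0.00100), Nupr1, highest by far in Rik null replicate 1 (1.07, SE 0.24, edgeR adjusted p = 0.00161) and Ppp1r15a (0.69, SE 0.14, edgeR adjusted p = 5.61e-04), and the lower ones included Phgdh, the enzyme that opens serine synthesis (-0.34, SE 0.08, edgeR adjusted p = 0.00178). Atf4, the transcription factor of that response, had 89.4 ± 12.9 CPM in Rik null and 88.2 ± 8.78 CPM in WT, and its target Asns, asparagine synthetase, had 101 ± 4.94 CPM in Rik null and 103 ± 8.67 CPM in WT. Neither passed, with log2 fold changes of 0.02 (SE 0.08) and -0.02 (SE 0.06). The remaining higher genes were Atf3 (1.32, SE 0.33) and Cebpb (0.70, SE 0.22). Atf3 was low, at 1.48 ± 0.791 CPM in Rik null and 0.587 ± 0.106 CPM in WT. The remaining lower genes were Psat1 (-0.29, SE 0.07) and Shmt2 (-0.26, SE 0.08). Atf4, Asns and these remaining genes were chosen for mention after their values were seen. These are RNA levels, and the amount and activity of the Atf4 protein were not measured. Whether either kind of stress has a part in the level of Slc38a2 was not tested.

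Of 7 osmotic response genes 3 were higher and 2 lower, and their log2 fold changes had a median of 0.21. Sgk1, a kinase induced by hypertonicity and by glucocorticoids, had 360 ± 82.4 CPM in Rik null and 105 ± 32.2 CPM in WT (1.78, SE 0.17, edgeR adjusted p = 8.91e-08), and Slc6a6 above belongs to this list too. Lower in the same list were Hspa4l, a heat shock protein (-0.23, SE 0.05, edgeR adjusted p = 0.00161), and Akr1b3, the aldose reductase that makes the osmolyte sorbitol, whose highest Rik null library was again replicate 1 (-0.38, SE 0.09, edgeR adjusted p = 0.00335).

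Genes that make and use glutamine and glutamate were mostly lower where they passed. Of 18 tested, 9 were lower and 2 higher, and their log2 fold changes had a median of -0.12. The lower genes included Aldh5a1 and Abat of GABA breakdown, Abat being lowest by far in Rik null replicate 1 (-0.48, SE 0.05, edgeR adjusted p = 1.10e-06 and -0.32, SE 0.06, edgeR adjusted p = 2.83e-04), the alanine aminotransferase Gpt (-0.53, SE 0.13, edgeR adjusted p = 0.00275) and the vesicular glutamate transporter Slc17a8 (-0.81, SE 0.20, edgeR adjusted p = 0.00328).

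Of 14 genes of glutathione synthesis and NRF2 targets, to which Slc7a11 is tied through cystine, 4 were higher and 1 lower, and their log2 fold changes had a median of 0.21. Nqo1, a quinone reductase and a standard NRF2 target, had the largest change of those named (0.71, SE 0.14, edgeR adjusted p = 5.81e-04), and Gsr, glutathione reductase, rose by less (0.33, SE 0.07, edgeR adjusted p = 0.00115). Gclc, the catalytic subunit of the enzyme that starts glutathione synthesis, and Ggt7 had log2 fold changes of 0.24 (SE 0.07) and 0.22 (SE 0.06). None of the 4 higher genes passed in females alone. Their log2 fold changes there were 0.53 for Nqo1, 0.34 for Gsr, 0.23 for Gclc and 0.27 for Ggt7. In males alone Gsr (0.30), Gclc (0.23) and Ggt7 (0.16) did not pass. The 1 lower gene was Gss, glutathione synthetase (-0.33, SE 0.10, edgeR adjusted p = 0.0105). The other 9 did not pass, among them Gclm (0.09, SE 0.05), Hmox1 (0.25, SE 0.21), Txnrd1 (0.05, SE 0.06) and Srxn1 (-0.02, SE 0.07). Gss and these genes were chosen for mention after their values were seen.

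Of 31 genes through which amino acids reach the kinase complex mTORC1, 10 were higher and 3 lower. Their log2 fold changes had a median of 0.11, with -0.67 as the lowest and 0.56 as the highest. The genes named by smallest p were all higher. The named genes were Fnip1, a partner of folliculin (0.40, SE 0.06, edgeR adjusted p = 1.56e-05), the arginine sensor homolog Castor2 (0.35, SE 0.06, edgeR adjusted p = 1.79e-04), the sestrin Sesn1, for which Rik null replicate 1 was far above the rest of its group (0.56, SE 0.11, edgeR adjusted p = 4.19e-04) and the Rag GTPase Rragc (0.43, SE 0.08, edgeR adjusted p = 4.74e-04).

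**Figure D4:**
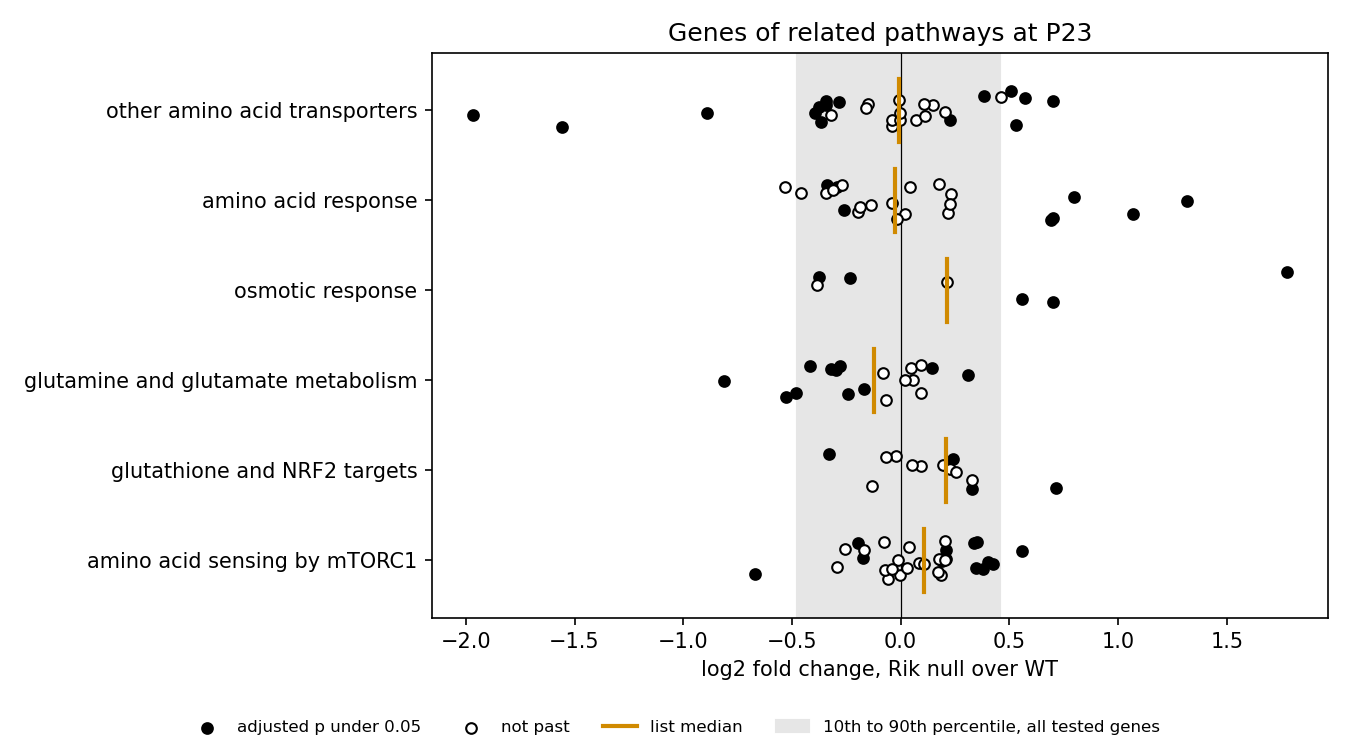
Log2 fold change of Rik null over WT for each tested gene of the 6 lists, 1 row per list, with filled circles for an adjusted p under 0.05, an orange bar for the list median and a grey band for the 10th to 90th percentile of all tested genes. The medians run from -0.12 for glutamine and glutamate metabolism to 0.21 for the osmotic and glutathione lists, and every list holds genes on both sides of 0.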

How the data were processed

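Total RNA of P23 mouse brain was sequenced in 14 libraries, 7 Rik null and 7 WT. Groups, replicate numbers and sex came from the sample labels. According to the study's methods a service company made the libraries, sequenced them and ran its usual analysis. Which aligner, counter, annotation, strand setting and RNA selection it used is not given in the sources used here. The submitters' processing notes name the build GRCm38.

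The deposited table held, for 56748 genes, raw read counts in each library. It also held deposited FPKM values, which equal the counts over gene length times 1 constant per library, and, as an other measure, the gene length. The authors' own comparison columns hold mean normalized counts per genotype, log2 fold changes and p-values, and they were not used. Every gene carried an identifier, and 0 columns of per-sample values were left unmapped. Listed positions matched GENCODE M21 on GRCm38 for 1537 of 52125 shared identifiers, so positions were taken from GENCODE M21 by identifier. Promoter sequences came from RefSeq (GRCm38.p6). Reads of overlapping genes could not be assigned by strand. Only 1 annotated gene that overlaps a member held counts, 10 against Slc7a11. An overlapping gene that was not among the 56748 genes also counted as 0. Gm20388, which spans all of Slc7a5 on the opposite strand, had 0. Such a value cannot show that overlap had no part in the counts of a member.

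Counts were tested with the quasi-likelihood F test of edgeR 4.0.16 in R 4.3.3 (two-sided, genotype as the only term, TMM scaling, filterByExpr), with Benjamini-Hochberg adjustment over 16882 genes and a threshold of 0.05. CPM are relative to TMM-scaled library size. Standard errors (SE) of fold changes on the log2 scale were derived from the F statistic, and genes had a common biological coefficient of variation of 14.3%. Sex and its interaction with genotype were tested in a second fit. Correlations used exact permutation tests, two-sided, in Python 3.11.15 with scipy 1.17.1. Both edgeR fits were checked on simulated counts with known fold changes. The 42 pairs of libraries within a genotype differed by at least 4.47 chi-square per degree of freedom, so none was counted as a repeat.

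The 10 genes, the pathway and marker lists and the alternatives were chosen with earlier results of these data known. The genes named were all 10 members, up to 4 genes of smallest p past the threshold per list (those of the marker lists are given as counts only), the 5 nearest profiles to Slc38a2 with and without centring, and Rik. Slc38a5, Slc38a7, Atf4, Asns, Atf3, Cebpb, Psat1, Shmt2, Gss, Gclm, Hmox1, Txnrd1 and Srxn1 were added to these after their values were seen. Alternatives were RLE size factors, library size alone, scaling without mitochondrial genes, other filters on low values, DESeq2 1.42.0, a sex covariate, a replicate block, each library left out, both libraries that stand apart left out, and each sex alone. A fit with sex as a covariate without Rik null replicate 4 was added after seeing the data.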

Additional observations from a re-analysis of the deposited data

Results flagged for a closer look

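A screen for a library far from the rest of its genotype was run on the 10 members and on 23 named genes of the pathway lists, 66 groups of 7 libraries in all. Chance flags about 1 in 20 such groups. None of the 20 groups of the members was past the limit, and 6 of the others were. In 4 of them the library was Rik null replicate 1, which also stood apart over all genes. Its level was the highest for Sesn1 (163.94 CPM, next 104.76 CPM), Nupr1 (18.853 CPM, next 10.76 CPM) and Akr1b3 (33.485 CPM, next 26.807 CPM), and the lowest for Abat (329.62 CPM, next 402.95 CPM). The others were WT libraries that were lowest of their genotype, replicate 6 for Slc7a10 (32.355 CPM, next 37.177 CPM) and replicate 5 for Ggt7 (75.066 CPM, next 86.876 CPM).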

How the results depend on the processing

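Slc38a2 and Slc38a3 were past the threshold under all 26 alternatives, with log2 fold changes of 1.02 to 1.23 and -1.08 to -0.81, and Slc1a4 under 23 (-0.25 to -0.14). Between 2 and 4 members passed in any of them. Slc1a5 passed in 3, without Rik null replicate 1 (0.61), without both libraries that stand apart (0.74) and in males alone (0.86), and was at 0.09 in females alone, and Slc3a2 passed in 2. The males include Rik null replicate 4, whose transcripts go against that label. In females alone Slc7a5 was at -0.15 and Slc7a3 at -0.20, a move of more than the spread between libraries. Over all genes 2874 passed in females alone (1282 higher, 1592 lower) and 2737 in males alone (1241 higher, 1496 lower). Of the listed genes 18 were higher and 19 lower in females alone, and 14 were higher and 11 lower in males alone. Each of these fits had fewer libraries. The interaction of genotype and sex had 50 genes with no filter on low counts, and 0 to 2 with 1 library left out, the 2 being without WT replicate 2. The negative r of Slc7a5 and of Slc7a11 with Slc3a2 in Rik null became 0.18 and 0.35 without the 2 libraries farthest from the median of Slc3a2 (replicates 1 and 3). With each library left out in turn 5391 to 5789 genes passed. Same-numbered libraries of the genotypes correlated at -0.06 to 0.14, and 3 of 7 Rik null and 0 of 7 WT libraries matched their own number best. The labels name no litters, so these values cannot decide whether the numbers pair the animals. A replicate block gave 5966 genes and the same count of 3 members, and called 5 listed genes lower instead of 3 in both the amino acid response and the mTORC1 list. With library size alone 8 glutathione genes were higher instead of 4, and 1 mTORC1 gene lower instead of 3. Of the named list genes Ddit4 (0.57), Nupr1 (1.00), Hspa4l (-0.19), Nqo1 (0.53), Gsr (0.34), Ggt7 (0.27) and Gclc (0.23) did not pass in females alone, nor did Phgdh (-0.17), Gpt (-0.45), Slc17a8 (-0.65), Gsr (0.30), Gclc (0.23) and Ggt7 (0.16) in males alone. Marker calls were followed over the alternatives for up to 4 genes per list. Of these, 1 lower choroid plexus marker did not pass in 11 of the 26 alternatives, and 1 lower meningeal marker in 9. The higher neuronal marker did not pass in 9, and 1 higher endothelial marker in 5. The marker counts thus depend on the setting. Slc38a4 and Slc1a5 had the lowest counts of the members, at 11 to 41 and 21 to 71 per library.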
